A study of Mus musculus with 42 samples.

Results

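Day 4 embryoid bodies grown in 2.5 mM glucose were compared between mouse lines without AMPK and wild-type lines. The comparison used 5 of the 42 libraries of the series: 1 library of DKO line K1, 1 of DKO line K3, 2 of WT line W1 and 1 of WT line W2. DKO stands for the loss of both catalytic subunits of AMPK (encoded by Prkaa1 and Prkaa2), and every line is a C57Bl/6 embryonic stem cell line. All groups shared the same culture. Stem cells were freed of irradiated feeder cells over passages, replated as single cells in suspension without leukaemia inhibitory factor (LIF), and left to aggregate and differentiate for 4 days in low glucose (LG). The line is the replicate, so each genotype had 2 replicates, and a trait that a line carries for its own reasons cannot be told apart from the genotype by 2 lines. Nothing in the labels says that the 2 W1 columns are separate cultures, and they were averaged on the log2 scale as 1 line.

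AMPK is a kinase that becomes active when cellular energy runs low, as in glucose shortage. It restrains growth through the mTORC1 complex, which sits on the lysosome surface when active, and it promotes the making of lysosomes and autophagy. The lysosome degrades sugars, lipids and proteins with acid hydrolases, and many of its genes are activated by Tfeb and Tfe3, factors that bind the CLEAR element, a short sequence built around CACGTG. Embryoid bodies imitate early development: the outer cells of the aggregate become primitive and visceral endoderm, an epithelium rich in lysosomes, while the inner cells pass through an epiblast-like state.

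A total of 7 columns stood under a heading of LG day 4, and the 5 were selected on measured values. Txnip, a transcript that glucose induces, was at 0.183 and 0.663 RPKM in the K1 and K3 libraries, and at 0.294, 0.299 and 0.114 RPKM in W1, W1 and W2. A second column of K1, with 96.3 RPKM, and a second column of W2, with 237 RPKM, were left out because they went against the low-glucose heading. The threshold was 5 RPKM, so the library just inside it lay at 0.663 and the one just outside at 96.3. The lines themselves were recognised by Ddx3y on the Y chromosome and the imprinted RNA Meg3. Ddx3y was at 1.6 RPKM in K1 and 10.8 in K3, against 3.25, 2.52 and 5.44 in W1, W1 and W2, and Meg3 was at 61.9 and 54.8 RPKM in K1 and K3, against 65.2, 44.9 and 0.056 in W1, W1 and W2. These genes chose the libraries and were not tested.

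Of the targeted genes, Prkaa2 fell and Prkaa1 did not pass the test. Prkaa2 (chr4:105029650-105109898, mm10), which encodes the alpha2 catalytic subunit, had 0.055 and 0.233 RPKM in K1 and K3, against 3.56, 5.77 and 2.02 RPKM in W1, W1 and W2. The groups did not overlap, and the log2 difference of -1.84 ± 0.31 (SE) passed the test (limma, adjusted p = 0.0183). Prkaa1, which encodes the alpha1 subunit, had 4.66 and 4.48 RPKM in K1 and K3, against 10.8, 10.4 and 6.53 in W1, W1 and W2 (-0.75 ± 0.29, adjusted p = 0.234). Which exons were removed is not given in the sources used here, and the value of a gene sums all its exons. Of the other AMPK subunits, 0 passed the test.

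At this stage 245 of 14670 tested genes (1.67%) differed between DKO and WT lines: 56 were higher (0.382%) and 189 were lower (1.29%). The median log2 difference over all tested genes was 0. These shares of all genes are the background for the counts of called genes in every list below. All 245 were without overlap between the libraries of the genotypes, which a call nearly requires, and 17.4% of all tested genes had both DKO libraries below the 3 WT libraries while 17% had both above. The spread behind these tests came from 23 values of lines in 14 groups, and the count rests on that. With the 4 values of LG day 4 alone, limma called 0 genes although 1464 had an unadjusted p under 0.05, and LG days 2 and 4 together gave 33 calls. Single lines also weighed heavily, with 7 genes called without W1, 26 without K3 and 389 without K1. Of the 57 called genes that met the rule for description, 5 were called with any 1 of the 4 lines left out, namely Dusp4, Gstt2, Klf15, Rab7 and Rragc. Of these genes, Klf15 and Rab7 lie in a stretch of chromosome 6, described further on, where 33 of 119 tested genes fell. Depths were 13390000 to 18905000 reads for the 5 libraries. Across 13351 genes of 1 table, K1 correlated more closely with W2 (Pearson r = 0.9761) than with K3 (0.9695).

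Lysosomal genes of every class examined fell in DKO embryoid bodies, and none rose. Of 88 genes for sugar-degrading enzymes, lipid enzymes, proteases, membrane proteins and the proton pump, all passed the filter on low values, 11 fell and 0 rose, a share of 12.5% beside 1.67% of all genes. Their median log2 difference was -0.62, beside 0 over all genes, and 83 of 88 were below 0. Both DKO libraries lay below the 3 WT libraries in 56 of the 88 (63.6%), beside 17.4% of all genes. The whole list moved less in K1, with a median of -0.39 against the WT mean, than in K3, with -0.9. Without K3 the number that fell was 1, without W1 it was 0 and without K1 it was 25. In these bulk libraries, fewer cells of a type and less RNA per cell cannot be told apart.

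Among the enzymes that trim sugar chains, 5 of 25 fell and the median was -0.54. Hexa (chr9:59539667-59565105), the alpha subunit of beta-hexosaminidase A that clears GM2 ganglioside, had 59.1 and 27.8 RPKM in K1 and K3, against 151, 167 and 160 RPKM in W1, W1 and W2. It averaged 43.4 ± 22.1 RPKM in DKO lines and 159 ± 0.834 RPKM in WT lines (SD over 2 lines each). The WT values lay close together and far above both DKO lines, which passing the test favours. The log2 difference was -1.95 ± 0.28 (limma, adjusted p = 0.00867). Naglu, an enzyme of heparan sulphate breakdown, had 1.16 and 0.921 RPKM in K1 and K3, against 4.11, 6.21 and 2.59 in W1, W1 and W2 (-1.2, adjusted p = 0.0405). Arsa, the arylsulphatase that degrades sulphatide, had 4.31 and 2.20 RPKM in K1 and K3, against 11.5, 13.0 and 7.85 in W1, W1 and W2 (-1.39, adjusted p = 0.0296). In Naglu and Arsa the W2 library lay nearer to the DKO libraries than W1 did.

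**Figure D1:**
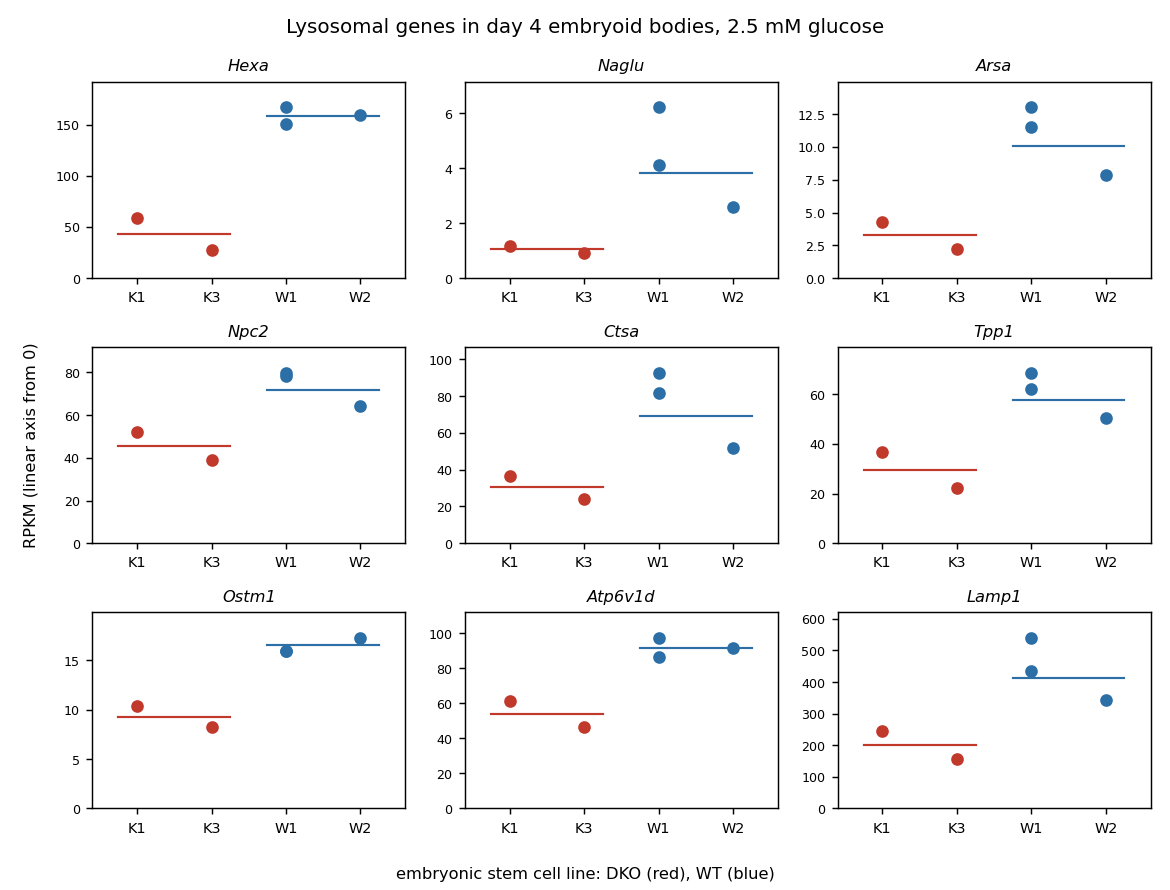
RPKM of 9 lysosomal genes in each library of day 4 embryoid bodies in 2.5 mM glucose, on linear axes from 0. Red points are the DKO lines K1 and K3, blue points the WT lines W1 (2 columns) and W2, and bars are the means over the 2 lines of a genotype. In every panel both DKO points lie below all WT points, as for Hexa with 59.1 and 27.8 RPKM in K1 and K3 against 151 to 167 RPKM in WT. All panels but that of Lamp1 show genes that passed the test.

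The other lysosomal classes held fewer calls but medians at least as low in 3 of 4. Npc2, which carries cholesterol out of the lysosome, was the only one of 13 lipid enzymes and activators to fall. It had 51.8 and 39.1 RPKM in K1 and K3, against 79.8, 78.1 and 64.4 in W1, W1 and W2 (-0.65, adjusted p = 0.0465), and the list's median was -0.48. Of 15 cathepsins and other proteases, 2 fell and the median was -0.97. Ctsa, a carboxypeptidase that also protects beta-galactosidase and neuraminidase, had 36.6 and 24.2 RPKM in K1 and K3, against 81.6, 92.8 and 51.8 in W1, W1 and W2 (-1.15, adjusted p = 0.0495). Tpp1, a tripeptidyl peptidase, had 36.7 and 22.4 RPKM in K1 and K3, against 61.8, 68.6 and 50.3 in W1, W1 and W2 (-0.97, adjusted p = 0.0429). Ctsd, an abundant aspartyl protease, did not pass, with 164 and 102 RPKM in K1 and K3, against 241, 290 and 179 in W1, W1 and W2 (-0.75, adjusted p = 0.282). Ctsk, a cysteine protease, stood on the other side, with 2.15 and 4.68 RPKM in K1 and K3, against 0.095, 0.601 and 0.774 in W1, W1 and W2, and missed the threshold (1.46, adjusted p = 0.0749). Ctsk was singled out after its values were seen, as were Fgf4, Spry2, Pou3f1, Gata4 and Mdm2 in the paragraphs that follow.

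Of 18 lysosomal membrane proteins 2 fell, all 18 were below 0 and the median was -0.75. Ostm1, the partner of the chloride transporter Clcn7, had 10.4 and 8.22 RPKM in K1 and K3, against 16.0, 16.0 and 17.3 in W1, W1 and W2 (-0.78, adjusted p = 0.0334). The groups were far apart beside the spread of the WT libraries, which passing the test favours. Lamp1, the main glycoprotein of the lysosomal membrane, had 246 and 157 RPKM in K1 and K3, against 434, 540 and 343 in W1, W1 and W2, and its difference of -1.05 ± 0.24 missed the threshold (adjusted p = 0.0549). The V-ATPase, which pumps protons into lysosomes, had 17 subunits tested, of which 1 fell, all 17 were below 0 and the median was -0.64. The subunit that fell was Atp6v1d, with 61.2 and 46.5 RPKM in K1 and K3, against 86.4, 97.3 and 91.5 in W1, W1 and W2 (-0.77, adjusted p = 0.0402).

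The proteins that deliver enzymes to the lysosome showed the same direction, with 2 of 11 genes lower (18.2%, beside 1.29% of all genes) and a median of -0.64. Both genes that fell encode parts of retromer, which returns sorting receptors from endosomes. Vps26a had 40.3 and 30.5 RPKM in K1 and K3, against 60.9, 70.0 and 55.9 in W1, W1 and W2 (-0.77, adjusted p = 0.0439), and Vps29 had 80.9 and 63.3 RPKM in K1 and K3, against 109, 125.48 and 112 (-0.67, adjusted p = 0.0423). Mcoln3, a calcium channel of endosomes and lysosomes that was among the 10 largest falls, had 4.51 and 2.18 RPKM in K1 and K3, against 13.5, 10.4 and 19.099 in W1, W1 and W2 (-1.94, adjusted p = 0.028). The transcripts of the MiT/TFE factors did not pass, 0 of 4. Tfeb had 3.19 and 1.33 RPKM in K1 and K3, against 5.97, 5.13 and 3.39 in W1, W1 and W2 (-0.78, adjusted p = 0.367), and Tfe3 had 46.1 and 51.2 RPKM in K1 and K3, against 45.9, 38.2 and 42.5 in W1, W1 and W2 (0.20, adjusted p = 0.534).

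The promoters of the fallen lysosomal genes were searched for TCACGTG and CACGTGA, which are reverse complements of each other and form the core of the CLEAR element. The windows ran from 250 bases before to 50 after a RefSeq start (GRCm38.p6), and a gene counted if any of its windows held either form. Of the 11 genes, 8 had an entry and 3 of these held it. Of all 88 lysosomal genes, 69 had an entry and 19 held it (27.5%), beside 23 of 133 genes that fell (17.3%), 0 of 42 that rose, 724 of 10590 tested genes (6.84%) and 4.29% of all 27025 genes in the table. The shorter core CACGTG stood in 30.4% of lysosomal genes with an entry, 18% of genes that fell, 11.9% of genes that rose and 11.7% of tested genes. The sites of the 3 genes, and of Rragc described further on, are shown so that the element can be seen in its sequence, 30 bases each with the matched letters in capitals. At Ctsa 2 copies of the longer TCACGTGA, in which both forms overlap, lie within the 30 bases.
Naglu: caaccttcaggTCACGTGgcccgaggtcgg
Arsa: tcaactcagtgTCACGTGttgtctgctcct
Ctsa: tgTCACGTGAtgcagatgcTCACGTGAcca
Rragc: gtgattccgggCACGTGAtagtaccactta
The stretches are chr11:101070009-101070038 (plus strand) for Naglu, chr15:89477423-89477452 (minus strand) for Arsa, chr2:164833758-164833787 (plus strand) for Ctsa and chr4:123917310-123917339 (plus strand) for Rragc. The match begins 74 bases before the start at Naglu, 17 at Arsa, 13 at Ctsa and 112 at Rragc. By GENCODE vM21 the match lies in an annotated exon of the gene itself at Naglu and Ctsa and in none at Arsa and Rragc. Hexa, Npc2, Tpp1, Ostm1 and Atp6v1d had no match in these windows, and a match or its absence says nothing here about binding.

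Rragc was among the most uniform of the falls. Its product is a Rag GTPase that recruits mTORC1 to the lysosome, and its promoter match is shown above. The gene had 30.2 and 26.1 RPKM in K1 and K3, against 60.4, 62.0 and 58.8 in W1, W1 and W2. The spread inside each genotype was small, which passing the test favours (28.1 ± 2.87 RPKM in DKO lines and 60.0 ± 1.72 RPKM in WT lines, SD over 2 lines each). The log2 difference was -1.07 ± 0.12 (limma, adjusted p = 0.0022). Of 26 genes for Rag GTPases, their regulators and mTORC1, 2 fell (7.69%, beside 1.29% of all genes) and the median was -0.11. The other was Tsc1, part of the complex that switches mTORC1 off, with 8.54 and 6.89 RPKM in K1 and K3, against 13.7, 12.2 and 13.5 in W1, W1 and W2 (-0.71, adjusted p = 0.0439). Of 31 autophagy genes 3 fell (9.68%, beside 1.29% of all genes), and the median of -0.06 was close to that of all genes. Optn, a receptor that brings cargo into autophagosomes, had 15.5 and 6.18 RPKM in K1 and K3, against 45.3, 40.4 and 39.8 in W1, W1 and W2 (-1.96, adjusted p = 0.0439). Ulk2, a kinase that starts autophagy, fell by 0.72 on the log2 scale (adjusted p = 0.0465), and Vps11, a tether for fusion with the lysosome, fell by 0.5 (adjusted p = 0.0498).

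**Figure D2:**
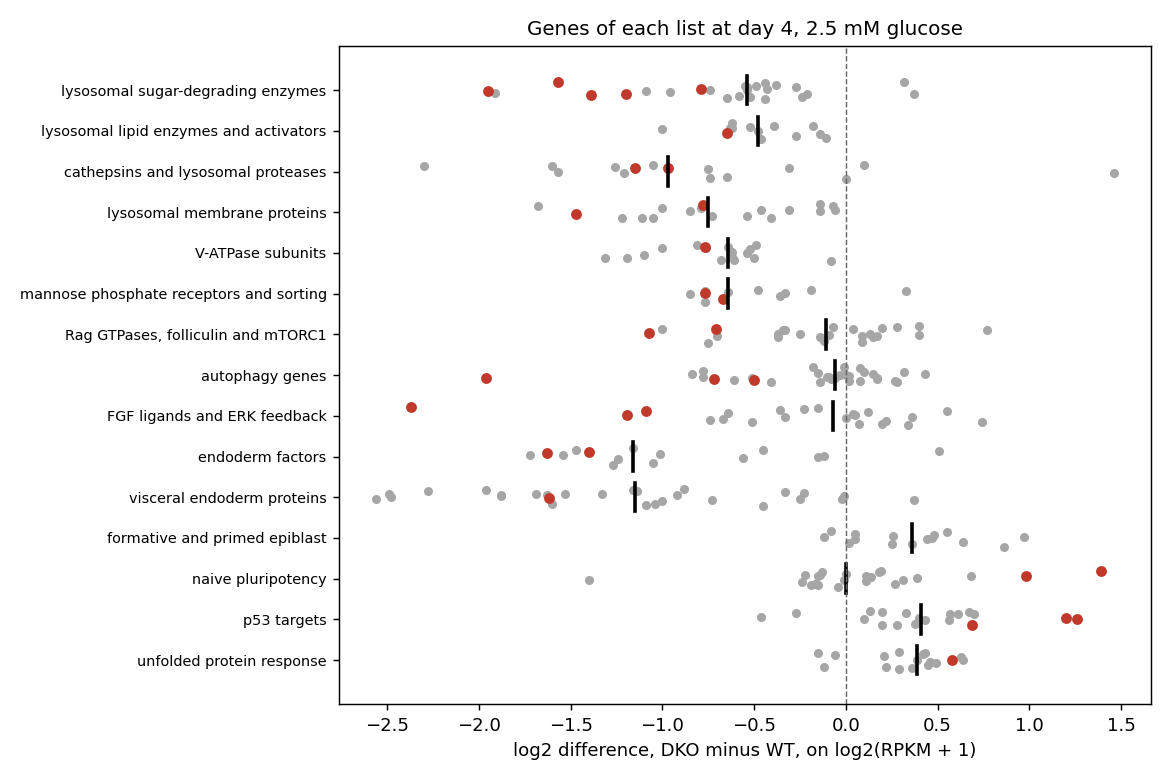
Log2 difference, DKO minus WT, of each tested gene of 15 lists on log2(RPKM + 1). Red points passed the test, grey points did not, and black bars are list medians. The 5 lysosomal lists and the sorting list have medians between -0.97 and -0.48 with nearly all points left of 0, whereas autophagy and mTORC1 genes centre near 0.

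The endoderm lists also had medians below 0, and the defining markers of endoderm differed widely between the lines of a genotype. Of 15 endoderm genes 2 fell, with a median of -1.16, and of 28 visceral endoderm proteins 1 fell, with a median of -1.15. The shares that fell were 13.3% and 3.57%, beside 1.29% of all genes. Summed over the 7 defining markers (Sox17, Foxa2, Gata6, Gata4, Afp, Ttr and Apoa1), the level was 30.1 and 2.5 RPKM in K1 and K3, against 101, 154 and 13.8 RPKM in W1, W1 and W2. K1 thus stood above W2, and the groups overlapped. Afp and Apoa1 were listed at 0 in K3. Gata4, a factor of primitive endoderm, had 8.15 and 1.36 RPKM in K1 and K3, against 33.8, 51.1 and 4.49 in W1, W1 and W2 (-1.72, adjusted p = 0.367). Sox17 had 1.59 and 0.177 RPKM in K1 and K3, against 6.44, 7.70 and 0.548 (-1.01, adjusted p = 0.537), and Afp had 0.555 and 0, against 6.06, 7.66 and 1.07 (-1.69, adjusted p = 0.52). Without W1 the median of the endoderm factors was -0.13. Gene by gene, 59 of 88 lysosomal genes were lower in K1 than in W2 and 28 were higher. Among 43 genes of the endoderm lists the order was the other way, with 13 lower in K1 and 29 higher. Each count sets 1 library against 1 library, and the same split over all tested genes was not counted. Summed over the lists, the lysosomal genes had 2890 RPKM in K1 and 3560 in W2. The genes of the endoderm lists had 855 RPKM in K1 and 1140 in W2, of which Apoe alone made up 359 and 755 RPKM. The part of the endoderm markers in the lysosomal difference was not tested.

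The genes of the endoderm lists that did pass were Apoe, Krt18 and Krt19. Apoe, a lipoprotein component, had 359 and 185 RPKM in K1 and K3, against 863, 815 and 755 in W1, W1 and W2 (-1.62, limma, adjusted p = 0.0465). At day 2 Apoe was already at 936 and 952 RPKM in W1 and W2, where Afp was listed at 0 in both. Krt18, a keratin of simple epithelia, had 24.9 and 14.0 RPKM in K1 and K3, against 75.1, 57.4 and 39.7 in W1, W1 and W2 (-1.4, adjusted p = 0.0487). Krt19, another such keratin, had 4.34 and 3.29 RPKM in K1 and K3, against 21.3, 22.6 and 8.56 (-1.63, adjusted p = 0.0423). In both keratins the W2 library lay between W1 and the DKO libraries.

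Of 22 FGF and ERK feedback genes 3 fell and 0 rose, with 11 below 0, 11 above 0 and a median of -0.07. The share that fell was 13.6%, beside 1.29% of all genes. Dusp4 (chr8:34807610-34819894), which encodes a nuclear phosphatase induced by ERK that switches it off, had 6.75 and 4.96 RPKM in K1 and K3, against 39.2, 37.2 and 30.3 in W1, W1 and W2. It averaged 5.85 ± 1.26 RPKM in DKO lines and 34.3 ± 5.56 RPKM in WT lines (SD over 2 lines each), and the log2 difference was -2.37 ± 0.25 (adjusted p = 0.00179). Dusp6, the cytoplasmic counterpart, had 20.5 and 26.7 RPKM in K1 and K3, against 67.9, 45.1 and 54.2 in W1, W1 and W2 (-1.19 ± 0.15, adjusted p = 0.00395). Spry4, another feedback inhibitor, had 8.21 and 8.48 RPKM in K1 and K3, against 21.0, 17.4 and 18.7 (-1.09 ± 0.2, adjusted p = 0.0272). In all 3 genes the lines of a genotype lay close together, which passing the test favours. Among the genes that did not pass, Fgf4, the main FGF ligand of these cells, had 57.2 and 25.9 RPKM in K1 and K3, against 38.9, 37.5 and 48.2 in W1, W1 and W2, and Spry2 had 49.8 and 62.4 RPKM, against 59.0, 50.3 and 56.6.

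Day 4 aggregates of both genotypes still carried pluripotency transcripts. Pou5f1, the factor Oct4, had 475 and 615 RPKM in K1 and K3, against 563, 419 and 519 in W1, W1 and W2 (0.11 ± 0.29, adjusted p = 0.929). Nanog had 64.6 and 78.0 RPKM in K1 and K3, against 55.2, 51.5 and 60.8 (0.31 ± 0.16, adjusted p = 0.404). Of 23 naive pluripotency genes 2 rose (8.7%, beside 0.382% of all genes) and 0 fell, with a median of 0. Dppa3, a protector of methylation marks in the egg and early embryo, had 41.1 and 42.9 RPKM in K1 and K3, against 9.84, 20.5 and 16.5 in W1, W1 and W2 (1.39 ± 0.29, adjusted p = 0.0405), and Nr5a2, a nuclear receptor that activates Pou5f1, had 8.12 and 6.67 RPKM, against 3.44, 3.21 and 3.14 (0.98 ± 0.19, adjusted p = 0.0338). Of 15 formative epiblast genes 0 passed, 13 were above 0 and the median was 0.36. Pou3f1, a factor of the epiblast, had the greatest difference of that list at 0.97 (adjusted p = 0.204), with 43.9 and 54.3 RPKM in K1 and K3, against 31.5, 17.8 and 25.1 in W1, W1 and W2.

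Lists of later lineages held 0 or 1 call each. Of 21 primitive streak genes 0 passed, and T, the marker of nascent mesoderm, had 0.251 and 2.16 RPKM in K1 and K3, against 1.39, 0.355 and 0.624 in W1, W1 and W2 (0.22, adjusted p = 0.894). Of 18 neural genes 0 passed, and Pax6 had 2.63 and 2.49 RPKM in K1 and K3, against 1.55, 1.22 and 2.20 (0.37, adjusted p = 0.791). Of 21 cardiac and muscle genes and 11 trophoblast genes 0 passed. Tek, a receptor of endothelium, was the 1 gene to rise of 18 blood and endothelial genes (5.56%, beside 0.382% of all genes), whose median was -0.01. Tek had 5.26 and 3.91 RPKM in K1 and K3, against 2.21, 1.93 and 2.15 in W1, W1 and W2 (0.83, limma, adjusted p = 0.0465). Of 30 Wnt genes 0 passed, and Axin2, a target of the pathway, had 2.00 and 6.75 RPKM in K1 and K3, against 3.89, 2.50 and 3.46 (0.17, adjusted p = 0.907). Of 16 feeder and fibroblast genes 1 rose (6.25%, beside 0.382% of all genes) and the median was 0.34. It was the collagen Col1a1, with 1.86 and 3.04 RPKM in K1 and K3, against 0.45, 0.431 and 0.524 in W1, W1 and W2 (1.2, adjusted p = 0.0322). Summed over that list, the level was 117 and 110 RPKM in K1 and K3, against 92.7, 88.1 and 114 in W1, W1 and W2, and the groups overlapped.

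Of 20 tested p53 targets, 3 rose (15%, beside 0.382% of all genes) and 0 fell, 18 were above 0 and the median was 0.41. Cdkn1a (chr17:29093772-29100722), the cell cycle inhibitor p21, had 35.037 and 48.2 RPKM in K1 and K3, against 19.9, 18.9 and 15.4 in W1, W1 and W2. It averaged 41.6 ± 9.32 RPKM in DKO lines and 17.4 ± 2.79 RPKM in WT lines (SD over 2 lines each), a log2 difference of 1.2 ± 0.24 (adjusted p = 0.0384). Plk2, a kinase induced by p53, had 19.6 and 32.1 RPKM in K1 and K3, against 10.3, 10.4 and 9.52 in W1, W1 and W2 (1.26 ± 0.28, adjusted p = 0.0495). Ccng1, cyclin G1, had 129 and 108 RPKM in K1 and K3, against 74.3, 82.4 and 68.1 (0.69 ± 0.15, adjusted p = 0.0439). Mdm2, the ubiquitin ligase that holds p53 down, did not pass, with 52.3 and 61.2 RPKM in K1 and K3, against 40.2, 36.2 and 35.1 in W1, W1 and W2 (0.61, adjusted p = 0.0834). After quantile scaling 1 of the 20 rose, and without W1, W2 or K3 it was 0.

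Of 17 genes of the unfolded protein response 1 rose (5.88%, beside 0.382% of all genes), 14 were above 0 and the median was 0.39. Hspa5, the chaperone BiP, had 561 and 450 RPKM in K1 and K3, against 285, 348 and 357 in W1, W1 and W2 (0.58 ± 0.13, adjusted p = 0.0439). The difference was larger in K1 than in K3. It did not pass under median-of-ratios scaling (adjusted p = 0.0614), quantile scaling (adjusted p = 0.15) or with any 1 of the 4 lines left out. The median of the list was 0.14 in K3 alone. Of 27 genes of sterol and fatty acid synthesis 1 fell, Insig1, which holds the sterol sensor in the endoplasmic reticulum, with 18.9 and 21.0 RPKM in K1 and K3, against 39.3, 41.8 and 32.011 in W1, W1 and W2 (-0.82, adjusted p = 0.0345). The median of that list was -0.23, and its 1 call was a share of 3.7%, beside 1.29% of all genes. Of 27 glycolysis genes 1 fell, Hk2, whose values are given with chromosome 6 further on. Of 23 genes of mitochondria and 24 of the integrated stress response 0 passed.

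Several of the largest single differences belonged to none of these groups. Klhl14, a Kelch-domain protein, had 1.05 and 0.963 RPKM in K1 and K3, against 11.8, 12.1 and 11.9 in W1, W1 and W2. This was the largest fall among the called genes described, at -2.69 ± 0.36 (limma, adjusted p = 0.00569). Both genotypes were tight, which passing the test favours. Igf2 (chr7:142650768-142657481), an imprinted growth factor of the embryo, had 3.31 and 3.30 RPKM in K1 and K3, against 37.8, 18.8 and 17.8 in W1, W1 and W2 (-2.41 ± 0.41, adjusted p = 0.0198). Gstt2, a glutathione transferase, had 10.6 and 9.28 RPKM in K1 and K3, against 40.4, 33.6 and 54.1 (-2.06 ± 0.2, adjusted p = 0.00098). In Igf2 the first W1 column stood well above the second, which was close to W2. Of 26 imprinted genes outside chromosome 6, Igf2 and Impact fell (7.69%, beside 1.29% of all genes), and the median was -0.02. Impact, a regulator of the translation kinase Gcn2, had 45.3 and 27.1 RPKM in K1 and K3, against 69.1, 64.8 and 86.9 in W1, W1 and W2 (-1.1, limma, adjusted p = 0.0287). Cxcl16, a chemokine, had 3.35 and 0.65 RPKM in K1 and K3, against 14.0, 12.5 and 11.1 (-2.29, adjusted p = 0.0429), and Uap1l1, a relative of an amino sugar pyrophosphorylase, had 32.988 and 10.4 RPKM, against 106, 81.7 and 79.9 (-2.15, adjusted p = 0.0405). Plvap, a protein of endothelial diaphragms, had 2.29 and 0.817 RPKM in K1 and K3, against 9, 6.03 and 8.19 in W1, W1 and W2 (-1.84, adjusted p = 0.0184). In Cxcl16 and Uap1l1 K3 lay well below K1.

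Among genes that reached 5 RPKM outside chromosome 6, Mmp3, S100a4 and Grem1 had the largest rises. Mmp3, a matrix metalloprotease, had 5.53 and 13.7 RPKM in K1 and K3, against 0.209, 0.839 and 1.42 in W1, W1 and W2 (2.37 ± 0.45, adjusted p = 0.031). S100a4, a calcium-binding protein of motile cells, had 7.10 and 8.68 RPKM in K1 and K3, against 0.605, 1.80 and 1.39 (1.98 ± 0.34, adjusted p = 0.0232). Grem1, an extracellular inhibitor of BMP, had 4.45 and 8.19 RPKM in K1 and K3, against 0.32, 1.29 and 1.17 (1.87 ± 0.25, adjusted p = 0.00569). All 3 were below 2 RPKM in every WT library. Fibroblast genes as a list lay higher as well, with 13 of 16 above 0, and their part in these rises was not tested. Mcam, an adhesion molecule, had 18.4 and 24.7 RPKM in K1 and K3, against 8.78, 5.82 and 6.24 in W1, W1 and W2 (1.54, adjusted p = 0.00999). Zfp365, Gfra1 (a receptor for a neurotrophic factor), Jam2 (a tight junction protein) and Actn3 (an actin cross-linker) rose by 1.14 to 1.5 on the log2 scale.

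**Figure D3:**
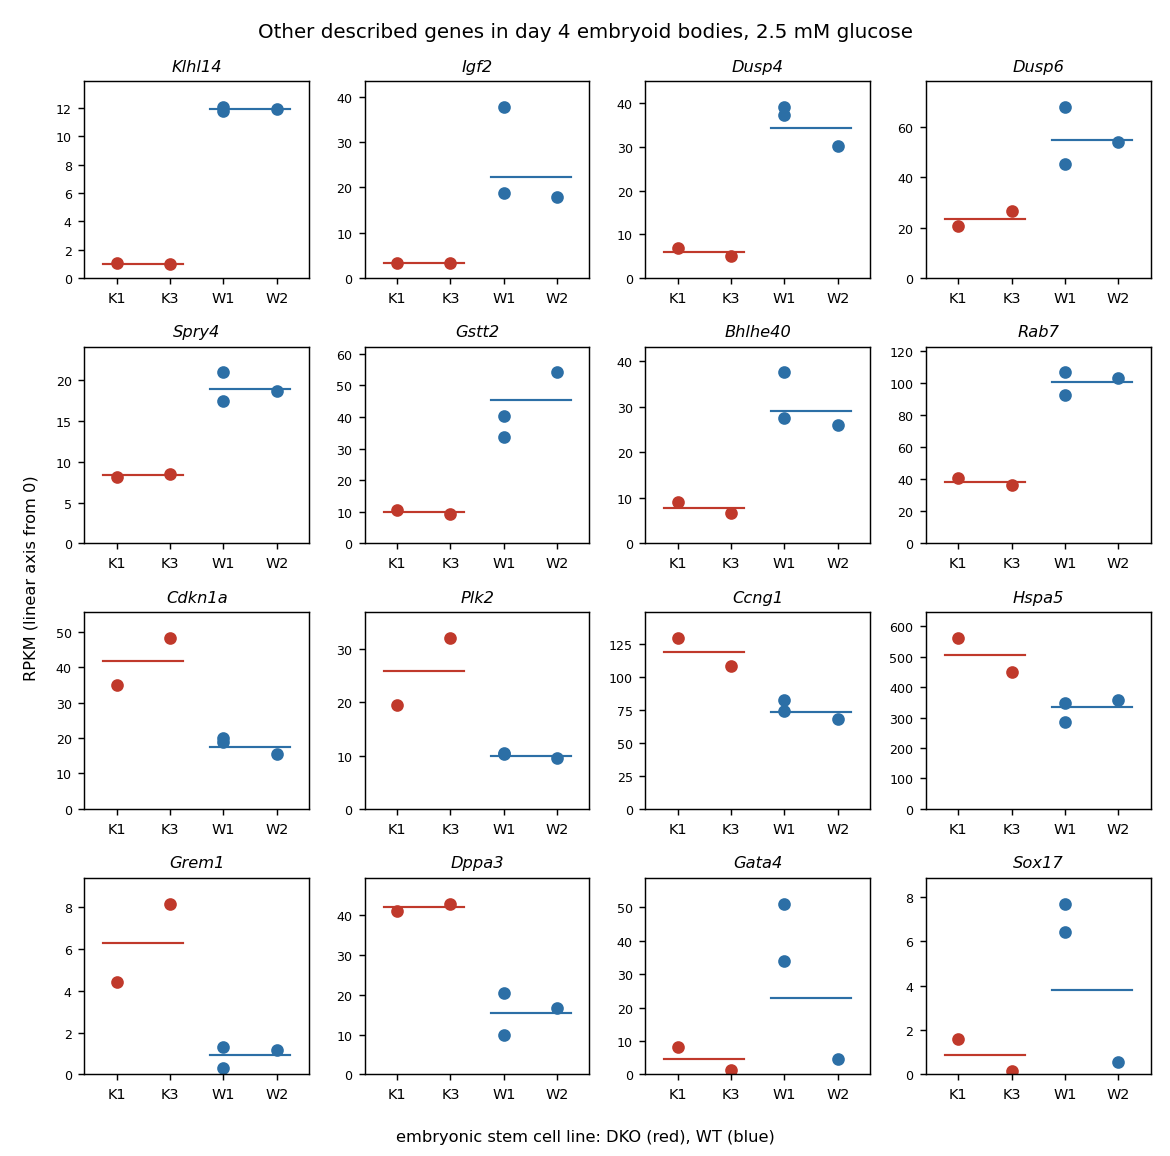
RPKM of 16 other described genes in each library, on linear axes from 0, with DKO lines K1 and K3 in red, WT lines W1 (2 columns) and W2 in blue and bars at the means over 2 lines. The first 8 genes fell, Cdkn1a, Plk2, Ccng1, Hspa5, Grem1 and Dppa3 rose, and Gata4 and Sox17 did not pass, with K1 above W2 in both (8.15 and 4.49 RPKM for Gata4).

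Calls were crowded on chromosome 6. It held 682 tested genes, of which 36 fell (5.28%) and 3 rose, beside 153 falls and 53 rises among 13988 genes elsewhere (1.09% and 0.379%). A stretch from 80 to 95 Mb held 33 of the 36 falls among 119 tested genes (27.7%). Rab7 (chr6:87999106-88045017), the GTPase that matures late endosomes and lysosomes, lies in it and had 41.0 and 36.2 RPKM in K1 and K3, against 92.7, 107 and 103 in W1, W1 and W2 (-1.37 ± 0.13, adjusted p = 0.00098). Klf15, a transcription factor of fasting metabolism, had 2.15 and 2.27 RPKM in K1 and K3, against 10.3, 8.81 and 10.4 (-1.77 ± 0.15, adjusted p = 0.00074). Hk2, the hexokinase of proliferating cells, had 26.5 and 28.4 RPKM in K1 and K3, against 64.3, 60.6 and 52.3 (-1.03, adjusted p = 0.0405). Anxa4 and Iqsec1 fell there too, by 1.57 and 1.4 on the log2 scale. Further along, Bhlhe40, a repressor of the circadian clock, had 8.98 and 6.75 RPKM in K1 and K3, against 37.5, 27.4 and 25.9 (-1.76 ± 0.31, adjusted p = 0.0232). Among the rises on the chromosome, Zfp422, a zinc finger protein, had 13.4 and 14.6 RPKM in K1 and K3, against 9.34, 9.76 and 8.83 (0.56, adjusted p = 0.0439).

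**Figure D4:**
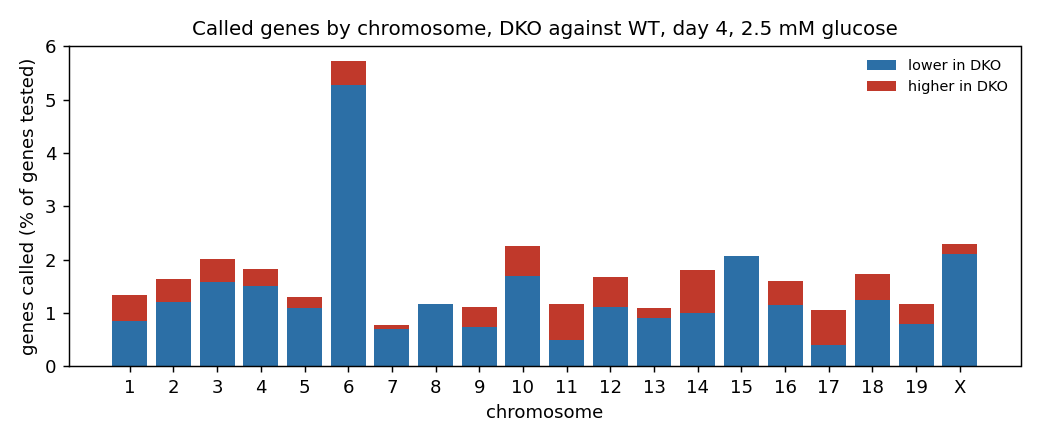
Share of tested genes called on each chromosome, lower in DKO (blue) and higher in DKO (red, stacked), in percent of the genes tested there. Chromosome 6 stands apart with 5.28% lower, and the other chromosomes lie between 0.398% and 2.1% lower.

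The lines differed along that chromosome, and the stretches given here were drawn after the values were seen, so they carry no test. Over 287 genes of the first 80 Mb the median against the WT mean was -0.03 in K1 and -0.61 in K3. From 80 to 90 Mb it was -0.77 in K1 and -0.62 in K3, so that both lines were lower over the same 93 genes. From 90 to 100 Mb it was -0.83 in K1 and -0.05 in K3. Over 129 genes further along, in the stretch that holds Dppa3 and Nanog, it was 0.41 in K1 and 0 in K3. W1 and W2 differed by medians between -0.03 and 0.09 in all these stretches. The day 2 libraries of the same lines gave 0.03 in K1 and -0.64 in K3, then -0.71 and -0.64, then -0.72 and -0.08, then 0.36 and -0.06 for the same stretches in the same order. Leaving out chromosome 6 left 206 called genes, and all 11 lysosomal genes that fell lie elsewhere. In a list of 12 tested imprinted genes of chromosome 6, the median was -0.64. Both DKO libraries lay below the 3 WT libraries in 7 of the 12 (58.3%, beside 17.4% of all genes). The lowest was Peg10 at -4.58, whose values are given under other observations. Only Sgce passed the test (8.33%, beside 1.29% of all genes). It had 0.341 and 0.094 RPKM in K1 and K3, against 3.33, 3.83 and 3.84 in W1, W1 and W2 (-1.96, adjusted p = 0.0272). Sgce lies in the first 5 Mb, where the median of 10 tested genes was -0.21 in K1 and -1.03 in K3. The part of its position in the fall was not tested.

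At LG day 2, 22 genes (0.15%) passed between the same lines, 15 of them on chromosome 6, and 19 of the 22 were also called at day 4. Of the 245 genes called at day 4, 237 had the same sign at day 2. The lines are the same on both days, so the sign cannot tell a trait of a line from the genotype. The share of all tested genes that kept their sign was not counted. In 223 of the 245 the difference was smaller at day 2, which is the direction that choosing them at day 4 favours. The genotype by day interaction in the same fit passed for 0 genes (0%), with 353 (2.41%) at an unadjusted p under 0.05. A change of the genotype difference between the days was therefore not shown for any gene. The median of the lysosomal genes was -0.24 at day 2, beside -0.62 at day 4, and that of p53 targets was 0.45, beside 0.41. Cdkn1a had 21.975 and 37.7 RPKM in K1 and K3 at day 2, against 10.3 and 10.7 in W1 and W2 (1.37, adjusted p = 0.0601). Hexa had 44.6 and 38.1 RPKM in K1 and K3 at day 2, against 87.5 and 75.9 in W1 and W2 (-0.97, adjusted p = 0.376). Klhl14 was below 1 RPKM in every line at day 2, with 0.168 and 0.229 RPKM in K1 and K3 and 0.367 and 0.317 in W1 and W2, and its interaction had the smallest unadjusted p of the genes described (0.000344, adjusted p = 1).

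**Figure D5:**
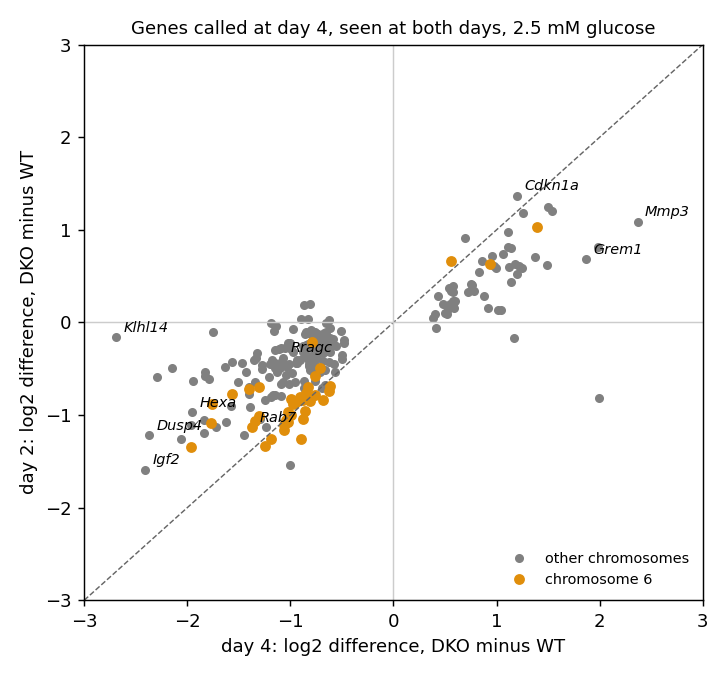
Log2 difference, DKO minus WT, at day 4 (horizontal) and day 2 (vertical) for the 245 genes called at day 4, in 2.5 mM glucose. Orange points lie on chromosome 6, and the dashed line marks equal differences. Many chromosome 6 genes lie near the dashed line, as Rab7 with -1.37 and -1.13 does, and Klhl14 lies near 0 at day 2 (-2.69 and -0.16).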

How the data were processed

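The authors deposited RPKM values (reads per length of transcript and per sequenced library) for 24225 genes in 42 libraries, made from messenger RNA with a kit that does not mark strand, so a gene and an antisense partner cannot be told apart. STAR 2.4.0k and HOMER stand in the submitters' processing notes beside the builds mm10 and GRCm38, and so do edgeR 3.6.8, R 3.1.1 and FastQC 0.11.2, all without roles; gene filters are not given in the sources used here. Depths were found from the step between low values, by choosing the depth at which the largest share of them came out as whole reads (tolerance 0.1). That share was 100% of those examined and, being the rule of choice, is no separate check. They were 10495000 to 25495000 reads over the series.

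Columns were assigned by heading, and the libraries, members and lists were chosen with earlier results of these data known. In all 24 libraries whose line markers and Txnip fitted the heading, values were averaged per line and condition (23 values), a gene was tested if 2 or more values reached 1 RPKM, and limma 3.58.1 (R 4.3.3, trend) was fitted to log2(RPKM + 1) with a mean for each of 14 groups (9 residual degrees of freedom). Fold changes of low genes are understated, and values of a line over conditions were treated as independent. P-values were adjusted by Benjamini-Hochberg over all tested genes (threshold 0.05), reflect the spread among these lines alone. The fitting code was tried on simulated data with known changes. Lists were described by counts and medians. Described genes were the 10 largest rises and falls outside chromosome 6, the 5 largest falls and 3 largest rises on it (at least 5 RPKM, no overlap, proper symbol), up to 4 called members per list and 16 set genes; the few others named were chosen after their values were seen. Alternatives varied scaling, pseudocount (0.1), filter (0 or 5 RPKM), fit, libraries and lines. Some genes that met the rule for description are not reported here.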

Additional observations from a re-analysis of the deposited data

Results flagged for a closer look

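The 2 columns of LG day 4 that were left out carried transcripts that glucose induces, far above the libraries of the comparison. Txnip was at 96.3 RPKM in the left-out K1 library and 237 in the left-out W2 library, against at most 0.663 RPKM in the 5 libraries used. Arrdc4, an arrestin gene of the same response, was at 21.0 RPKM in the left-out K1 library and 30.2 in that of W2, against 1.29 and 1.89 RPKM in K1 and K3 and 1.096, 1.02 and 0.68 in W1, W1 and W2. The line markers of both left-out libraries fitted their headings, with Ddx3y at 1.3 RPKM in K1 and 5.86 in W2 and Meg3 at 42.1 and 0.216.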

How the results depend on the processing

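The median of the lysosomal genes kept its direction in all alternatives, at -0.9 to -0.39 with single lines left out (-0.39 without K3) and -0.66 to -0.56 otherwise. All 57 called genes that met the rule for description kept their direction, and calls did not. With single lines left out, the counts ranged from 7 to 389 in all, 0 to 144 higher, 7 to 245 lower, 5 to 351 outside chromosome 6, 0 to 25 lysosomal genes and 0 to 3 p53 targets, the lone line being assumed to vary like the other groups. Quantile scaling gave 151 genes, 112 lower, 123 outside chromosome 6 and 1 p53 target. With no filter there were 122 lower, 4 lysosomal and 0 p53 targets. LG day 4 alone gave 0 for every count. LG days 2 and 4 alone gave 33 genes, 3 higher, 30 lower, 24 outside chromosome 6 and 0 lysosomal or p53 genes. Line as a random effect (correlation 0.195) gave 20 lysosomal genes of 289 in all. With both left-out libraries averaged in, limma called 28 genes, 1 higher, 27 lower, 15 outside chromosome 6, 1 lysosomal and 0 p53 targets. All 42 libraries under their headings gave 0 for every count, with 248 genes at an unadjusted p under 0.05. The second W1 column alone gave 1 p53 target. Genes that were not called changed sign. Pou5f1 turned to -0.08 with quantile scaling, to -0.02 with the left-out libraries averaged in or all 42 libraries, and to -0.08 without K3 (0.29 without K1). Without K3 Axin2 turned to -0.52 and T to -0.45 (0.85 and 0.88 without K1), and without W1 Sox17 turned to 0.17 (-2.2 without W2). The interaction stayed at 0 genes in 3 alternatives (LG days 2 and 4 alone, random line, median-of-ratios scaling). The cause of these shifts was not tested. No paired analysis was possible because the columns carry no replicate number and the lines of the genotypes are separate lines.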

Other observations

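Peg10 and Mest, imprinted genes in the first 80 Mb of chromosome 6 that are expressed from the paternal allele, had the widest gaps of any imprinted genes examined, without passing the test. Peg10 had 5.61 and 0.071 RPKM in K1 and K3, against 61.2, 53.3 and 68.3 RPKM in W1, W1 and W2 (log2 difference -4.58, limma adjusted p = 0.188). Mest had 4.89 and 0.468 RPKM in K1 and K3, against 52.1, 43.4 and 54.8 RPKM in W1, W1 and W2 (adjusted p = 0.0888). Both were singled out after their values were seen.

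In Hexa the left-out W2 library with high Txnip had 65.1 RPKM, against 59.1 and 27.8 RPKM in K1 and K3 and 151 to 167 RPKM in WT. Summed over the 88 lysosomal genes, the level was 2890 and 1810 RPKM in K1 and K3, against 4700, 5600 and 3560 in W1, W1 and W2. The left-out libraries had 2190 RPKM in K1 and 2430 RPKM in W2.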
